A study of Mus musculus with 18 samples.

Results

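Expression of 10 genes assigned to ceramide and sphingomyelin metabolism was measured in bone marrow-derived macrophages (BMDM) whose choline metabolism had been inhibited before polarization with IL-4. They encode enzymes that make or break down these lipids, and homologues of acid sphingomyelinase, of which *Smpdl3a* acts on nucleotides. The genes were *Sptlc1* and *Sptlc2* (serine palmitoyltransferase), *Cers2*, *Cers5* and *Cers6* (ceramide synthases), *Sgms1* and *Sgms2* (sphingomyelin synthases), *Smpd1* (acid sphingomyelinase) and its homologues *Smpdl3a* and *Smpdl3b*. They were taken by name, through their Ensembl identifiers, from a table of 55385 genes, and all 10 were among the 14979 genes that reached 10 counts in 2 or more libraries. The cells came from 3 female C57BL/6J mice aged 12 weeks and were harvested at day 7 of culture in medium with L-929 supernatant. They received vehicle (Veh, 0.1% DMSO), 250 µM hemicholinium-3 (HC3, an inhibitor of choline uptake) or 5 µM RSM-932a (RSM, an inhibitor of choline kinase) for 24 h. For a further 24 h they then stayed naïve, written M[0], or were given IL-4 at 20 ng/mL, written M[IL-4]. This gave 6 groups of 3 libraries, named Veh M[0], HC3 M[0], RSM M[0], Veh M[IL-4], HC3 M[IL-4] and RSM M[IL-4]. All groups share strain, sex, age and culture, and the inhibitors were each used at a single dose and a single time.

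Ceramide is built in the endoplasmic reticulum. Serine palmitoyltransferase condenses serine with palmitoyl-CoA, and ceramide synthases later attach a second acyl chain whose length depends on the isoform. Sphingomyelin synthases move phosphocholine from phosphatidylcholine onto ceramide, which yields sphingomyelin and diacylglycerol and ties this lipid class to choline supply, and sphingomyelinases release ceramide again.

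Libraries held 17457796 to 19522255 counted read pairs, and levels are given as CPM (counts per 1e+06 counted pairs) scaled by the trimmed mean of M-values (TMM). All 8 macrophage markers examined passed the count filter, so the defining markers of the labelled cell type were present. Their summed level was 20277 to 21364 CPM in Veh M[0], 8707 to 9799 CPM in HC3 M[0] and 15749.5 to 17196 CPM in RSM M[0]. After IL-4 it was 11801 to 12146 CPM with Veh, 7469 to 8657 CPM with HC3 and 10601 to 12982 CPM with RSM. Against Veh in M[0], 8 markers fell with HC3 (21.5% of all tested genes fell). With RSM 7 fell (20.7%) and *Lyz2* did not pass, with a log2 fold change of 0.0034. In M[IL-4], 7 fell (19.9%) with HC3 and *Fcgr1* rose, at 0.66. With RSM there, *Csf1r* fell, at -0.71, *Fcgr1* and *Lyz2* rose, at 0.66 and 0.38, and 5 did not pass. A call here needed a false discovery rate under 0.05 in edgeR's quasi-likelihood test. The 4 stromal markers (*Col1a1*, *Col1a2*, *Dcn* and *Pdgfrb*), none of them at 0, summed to 482 to 813 CPM in Veh M[0], 1129 to 1549 CPM in HC3 M[0] and 964 to 1346 CPM in RSM M[0]. In M[IL-4] they were 260.3 to 620.0 CPM with Veh, 516 to 975 CPM with HC3 and 498 to 973 CPM with RSM, and of the 4 markers *Col1a1* rose in all 4 inhibitor comparisons while *Dcn* fell with RSM. Sums over 5 neutrophil, 3 B cell, 3 T cell and 2 dendritic cell markers were at most 2.26 CPM in any library, with all 3 T cell markers at 0 in 5 of the 6 groups. The 4 markers of the IL-4 response summed to 113 to 529 CPM across M[0] libraries and 1439 to 5107 CPM across M[IL-4] libraries. In each case the sum was lowest with HC3. The sum mixes markers that moved in different directions. Against Veh in M[IL-4], the log2 fold changes with HC3 were -5.15 for *Retnla*, -1.85 for *Arg1* and -0.75 for *Mrc1*. That of *Chil3* was 0.38 (false discovery rate 0.210 in edgeR's quasi-likelihood test). With RSM *Retnla* had -5.61, while *Arg1*, *Chil3* and *Mrc1* had 1.36, 1.54 and 0.79. Mitochondrial genes took 1.68% to 2.20% of the counts with Veh, 2.499% to 3.45% with HC3 and 0.665% to 0.829% with RSM. The part of stromal cells or of mitochondrial RNA in the inhibitor results was not tested, and in bulk RNA fewer cells of a type and less RNA per cell cannot be told apart.

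Promoters are shown for *Smpdl3b* and *Cers5*, which were lower with both inhibitors in each polarization, and for *Cers2* and *Sgms1*, which were higher in the same 4 comparisons. *Sgms2* and *Smpdl3a* were higher in those comparisons as well but are not shown, *Smpdl3a* having no entry. Sequences are from RefSeq (GRCm38.p6), read 5′ to 3′ on the strand of the gene, with 250 bases before and 50 bases from the most upstream listed start. Of the 10 genes, 9 had an entry. Capitals mark matches on either strand to the E-box (CACGTG), the CCAAT box (CCAAT), the GC box (GGGCGG), the core of the amino acid response element (TGATGNAA) or a STAT6-type site (TTCNNNNGAA), and no matches overlapped one another.
*Smpdl3b* (chr4:132757122-132757421, minus strand): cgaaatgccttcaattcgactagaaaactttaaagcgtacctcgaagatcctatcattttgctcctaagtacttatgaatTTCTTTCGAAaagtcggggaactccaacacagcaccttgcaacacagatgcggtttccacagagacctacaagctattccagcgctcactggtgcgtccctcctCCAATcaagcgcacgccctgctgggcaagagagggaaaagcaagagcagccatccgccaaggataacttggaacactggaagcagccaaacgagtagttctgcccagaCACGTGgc
*Cers5* (chr15:99772466-99772765, minus strand): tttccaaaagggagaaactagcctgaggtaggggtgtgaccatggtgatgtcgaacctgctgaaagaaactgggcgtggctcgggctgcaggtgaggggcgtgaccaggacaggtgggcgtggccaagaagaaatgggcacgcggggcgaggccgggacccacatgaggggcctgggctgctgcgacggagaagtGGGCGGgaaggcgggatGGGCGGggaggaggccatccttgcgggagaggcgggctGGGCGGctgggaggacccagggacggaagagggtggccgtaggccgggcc
*Cers2* (chr3:95314940-95315239, plus strand): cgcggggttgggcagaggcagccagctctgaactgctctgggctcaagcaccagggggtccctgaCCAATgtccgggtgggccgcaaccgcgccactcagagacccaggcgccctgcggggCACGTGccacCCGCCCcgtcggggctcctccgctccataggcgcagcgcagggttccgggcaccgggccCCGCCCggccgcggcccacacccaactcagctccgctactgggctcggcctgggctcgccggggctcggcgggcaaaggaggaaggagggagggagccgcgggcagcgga
*Sgms1* (chr19:32388463-32388762, minus strand): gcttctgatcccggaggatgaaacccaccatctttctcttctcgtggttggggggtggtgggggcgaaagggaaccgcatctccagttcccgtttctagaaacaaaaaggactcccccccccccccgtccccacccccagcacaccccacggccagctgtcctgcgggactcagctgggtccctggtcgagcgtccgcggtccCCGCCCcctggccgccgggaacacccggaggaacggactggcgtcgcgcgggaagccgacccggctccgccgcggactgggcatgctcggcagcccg
The *Smpdl3b* window held a CCAAT box, an E-box and a STAT6-type site, the *Cers5* window held 3 GC boxes and the *Sgms1* window 1. That of *Cers2* held an E-box, a CCAAT box and 2 GC boxes. That of *Sgms2*, not shown, held a CCAAT box and no GC box. Over the 9 windows, an E-box occurred in 3 (7.15% of 32841 mouse promoters of the same length), a CCAAT box in 7 (37.4%), a GC box in 6 (35.7%), the amino acid response core in 1 (3.97%) and a STAT6-type site in 2 (6.95%). These letter matches describe the windows only.

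Most of the 10 genes changed with inhibition of choline uptake or choline kinase, and most changes were under 2-fold. With HC3 in M[0], 4 of the 10 genes rose (22.6% of all tested genes rose) and 3 fell (21.5%). With RSM in M[0], 5 rose (20.5%) and 2 fell (20.7%). In M[IL-4], 5 rose (18.9%) and 2 fell (19.9%) with HC3, and 6 rose (20.1%) and 2 fell (18.5%) with RSM. These calls needed a false discovery rate (FDR) under 0.05 in edgeR's quasi-likelihood test over 14979 genes. When the log2 fold change also had to reach 1 or -1, 1 gene (*Smpdl3b*) was called with HC3 in M[0] (12% of all genes), 1 (*Sgms2*) with RSM in M[0] (11.6%), 1 (*Smpdl3b*) with HC3 in M[IL-4] (10.3%) and 3 (*Sgms2*, *Smpdl3a* and *Smpdl3b*) with RSM in M[IL-4] (11%). Libraries of inhibitor and vehicle did not overlap for 7 of 10 genes with HC3 in M[0] (52.2% of all genes), 8 with RSM in M[0] (51.5%), 8 with HC3 in M[IL-4] (45.9%) and 8 with RSM in M[IL-4] (46.6%). The median log2 fold change of the 10 genes was 0.074, 0.065, 0.28 and 0.21 in these comparisons, beside 0.023, 0.0053, 0.0063 and 0.019 over all tested genes. The comparisons with vehicle of HC3 and of RSM in a given polarization share their 3 vehicle libraries. The 10 genes were chosen with earlier results of these data known, so these counts describe them and are no independent support.

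**Figure D1:**
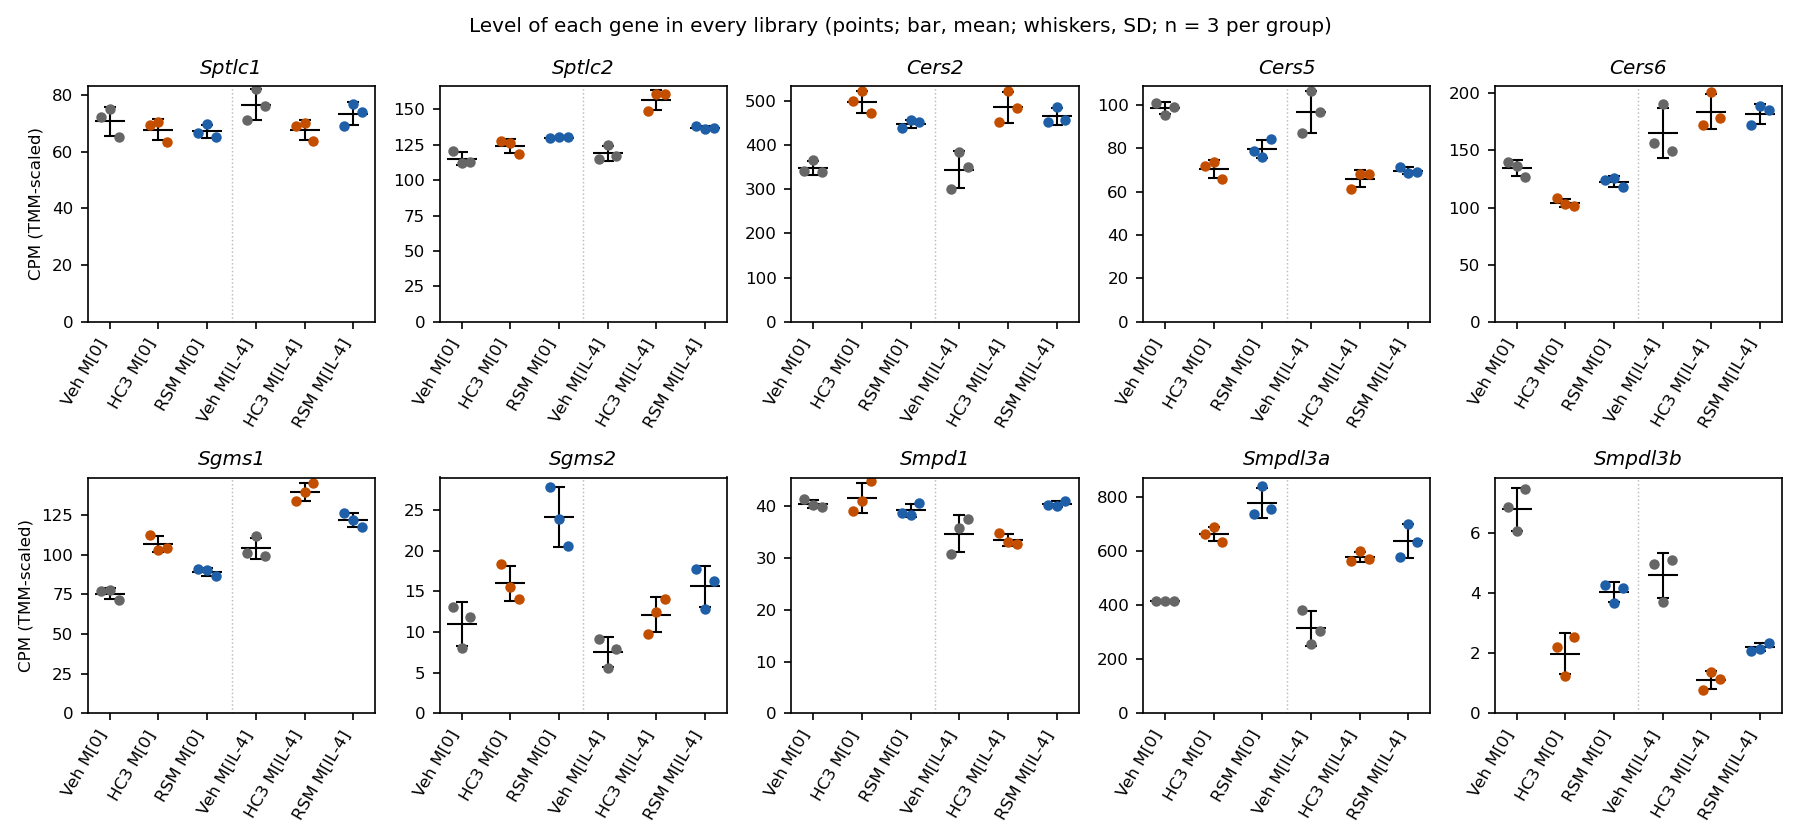
TMM-scaled CPM (y axis, from 0) of the 10 genes in the 6 groups (x axis); each point is a library, the bar is the mean and whiskers are the SD of 3 libraries. *Cers2*, *Sgms1* and *Smpdl3a* sit higher and *Cers5* and *Smpdl3b* lower with HC3 or RSM than with Veh on both sides of the dotted line, which separates M[0] from M[IL-4].

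Different genes were compared per kilobase of exon, over the union of all annotated exons rather than the expressed transcripts. On this scale *Smpdl3a* had the highest level of the 10 genes in every group and *Cers2* the next. In Veh M[0] the mean was 201 ± 0.814 CPM per kb (SD, n = 3) for *Smpdl3a* and 94.7 ± 4.37 for *Cers2*. It was 27.8 ± 0.791 for *Cers5*, 19.9 ± 1.43 for *Sptlc1*, 15.1 ± 0.792 for *Cers6*, 14.2 ± 0.563 for *Sptlc2*, 12.1 ± 0.236 for *Smpd1* and 7.14 ± 0.336 for *Sgms1*. Lowest were *Smpdl3b* at 3.39 ± 0.356 CPM per kb and *Sgms2* at 1.76 ± 0.426 CPM per kb. Among neighbours in this order, the libraries of *Cers6* and *Sptlc2* overlapped and the others did not. The order changed between groups. *Smpdl3b* lay above *Sgms2* in both vehicle groups and below it in all 4 inhibitor groups, with no overlap of their libraries in any group. Before division by length *Sgms2* was above *Smpdl3b* in every group, at 13.05, 7.99 and 11.9 against 6.86, 6.05 and 7.47 CPM in Veh M[0]. *Cers5*, the third highest in both vehicle groups, had the sixth level in HC3 M[IL-4], where *Cers6* was the third, although the libraries of each next pair from *Cers6* through *Sptlc2* and *Sptlc1* to *Cers5* overlapped. *Sgms1* lay above *Smpd1* in HC3 M[IL-4], without overlap, and its mean was below that of *Smpd1* in the other 5 groups, with overlap in Veh M[IL-4]. Before division by length *Sgms1* was above *Smpd1* in every group. *Cers6* and *Sptlc2* were likewise above *Cers5* in every group before that division. In Veh M[0] they were at 140.1, 137 and 127 CPM and at 120.4, 112 and 112 CPM, against 101, 95.3 and 99.05 CPM for *Cers5*. The changes of order of *Smpdl3b* with *Sgms2*, of *Cers5* with *Cers6* and *Sptlc2*, and of *Sgms1* with *Smpd1* thus rest on the exon lengths used.

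Of the subunits of serine palmitoyltransferase, which starts sphingolipid synthesis, *Sptlc1* passed in none of the 4 comparisons of an inhibitor with vehicle and *Sptlc2* was higher in 3 of them. *Sptlc1* (chromosome 13, 53332748 to 53377397, GRCm38) encodes the partner of the catalytic subunit and was at 72.3, 74.8 and 65.01 CPM in the Veh M[0] libraries, 69.2, 70.3 and 63.5 CPM with HC3 and 66.5, 69.7 and 65.04 CPM with RSM. Among M[IL-4] libraries it was at 71.1, 82.2 and 76.2 CPM with Veh, 69.00, 70.1 and 63.7 CPM with HC3 and 69.02, 76.9 and 74.02 CPM with RSM. Only with HC3 in M[IL-4] did its libraries lie wholly apart from vehicle, below it. That difference had a log2 fold change of -0.18 ± 0.071 (FDR 0.0561), just outside the threshold, and its FDR fell inside it when replicate number was a block within each polarization, at -0.18 (FDR 0.00763), and when Veh M[IL-4] replicate 1 was left out, at -0.23 (FDR 0.0260). The log2 fold changes of *Sptlc1* that did not pass were -0.063 ± 0.071 (FDR 0.510) for HC3 in M[0], -0.076 ± 0.071 (FDR 0.428) for RSM in naïve cells and -0.061 ± 0.071 (FDR 0.541) for RSM in M[IL-4].

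*Sptlc2* (chromosome 12, 87305058 to 87388355), the catalytic subunit, rose with RSM in both polarizations and with HC3 in M[IL-4]. Its level was 120.4, 112 and 112 CPM in Veh M[0], 127, 126 and 119 CPM in HC3 M[0] and 129, 130.1 and 130.3 CPM in RSM M[0]. In M[IL-4] it was 115, 125 and 117 CPM with Veh, 149, 161 and 161 CPM with HC3 and 138, 136 and 137 CPM with RSM. The 3 libraries of HC3 M[IL-4] were the highest of all 18. The log2 fold change was 0.40 ± 0.053 (FDR 8.08e-06) for HC3 in M[IL-4] and 0.20 ± 0.053 (FDR 0.00500) for RSM in M[IL-4]. For RSM in M[0] it was 0.18 ± 0.054 (FDR 0.0133), and that call was lost without Veh M[0] replicate 2, at 0.16 (FDR 0.0526), or without Veh M[0] replicate 3, at 0.16 (FDR 0.0524). Both calls with RSM were lost without the count filter, at 0.18 (FDR 0.109) in M[0] and 0.19 (FDR 0.0835) in M[IL-4], and without all libraries of replicate 3, at 0.16 (FDR 0.186) and 0.19 (FDR 0.118). Of 17 alternative fits, 12 kept the call in M[0] and 15 that in M[IL-4]. For HC3 in M[0] the value was 0.11 ± 0.054 (FDR 0.114), which did not pass, with 1 HC3 library inside the range of the vehicle libraries.

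The ceramide synthases moved apart from one another. *Cers2* (chromosome 3, 95314791 to 95323599), the broadly expressed isoform that attaches very long acyl chains, rose with both inhibitors in both polarizations. It was at 340.2, 367 and 338 CPM in Veh M[0], 498, 521 and 471 CPM in HC3 M[0] and 438, 455 and 451 CPM in RSM M[0]. With IL-4 it was at 299.5, 384 and 349 CPM with Veh, 451, 521 and 483 CPM with HC3 and 451, 486 and 456 CPM with RSM. Every inhibitor library exceeded every vehicle library of its polarization. The log2 fold changes were 0.51 ± 0.077 (FDR 2.46e-05) and 0.36 ± 0.077 (FDR 8.49e-04) with HC3 and with RSM in naïve cells, and 0.49 ± 0.077 (FDR 4.37e-05) and 0.43 ± 0.077 (FDR 1.73e-04) in M[IL-4]. Without all libraries of replicate 3 the value with RSM in M[0] was 0.34 (FDR 0.0540) and did not pass. Exons of genes on the opposite strand cover 5.96% of the exon length of *Cers2*, with *6330562C20Rik* and *Setdb1* overlapping it, and a 105-base stretch with at least 98% identity is shared with *6330562C20Rik*. How strand was used in counting is not given in the sources used here, and the share of *Cers2* counts that this affects was not measured.

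*Cers5* (chromosome 15, 99734881 to 99772885), which prefers palmitoyl chains, fell in the same 4 comparisons. It was at 101, 95.3 and 99.05 CPM in Veh M[0], 71.96, 73.8 and 65.9 CPM in HC3 M[0] and 78.6, 75.8 and 84.2 CPM in RSM M[0]. After IL-4 it was at 86.9, 106 and 96.4 CPM with Veh, 61.4, 68.2 and 68.1 CPM with HC3 and 71.4, 68.6 and 68.9 CPM with RSM. No inhibitor library reached the lowest vehicle library of its polarization. The log2 fold changes were -0.48 ± 0.072 (FDR 2.46e-05) and -0.31 ± 0.072 (FDR 0.00202) in naïve cells, and -0.55 ± 0.072 (FDR 5.96e-06) and -0.47 ± 0.072 (FDR 3.32e-05) in M[IL-4], for HC3 and RSM in that order.

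*Cers6* (chromosome 2, 68861441 to 69114282), which also favours palmitoyl chains, fell with HC3 in naïve cells but not in M[IL-4]. It was at 140.1, 137 and 127 CPM in Veh M[0], 108, 103 and 101 CPM in HC3 M[0] and 124, 126 and 118 CPM in RSM M[0]. Among M[IL-4] libraries it was at 156, 190.2 and 149.8 CPM with Veh, 172, 201 and 178 CPM with HC3 and 172, 189 and 186 CPM with RSM, and the highest vehicle library exceeded all 3 RSM libraries and 2 of the 3 HC3 libraries. The log2 fold change for HC3 in M[0] was -0.37 ± 0.081 (FDR 0.00118). The other values were -0.13 ± 0.081 (FDR 0.211) for RSM in M[0], 0.15 ± 0.080 (FDR 0.143) for HC3 in M[IL-4] and 0.14 ± 0.080 (FDR 0.185) for RSM in M[IL-4]. With replicate number as a block within each polarization these passed as well, at -0.13 (FDR 0.0341), 0.16 (FDR 0.0109) and 0.15 (FDR 0.0172), in fits where 50.9%, 49% and 49.4% of all genes passed. Leaving out Veh M[IL-4] replicate 2, whose level was the highest of its group, gave 0.27 (FDR 0.00749) for HC3 and 0.25 (FDR 0.0104) for RSM in M[IL-4].

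Within the ceramide synthase class, the share of *Cers2* was larger with the inhibitors and that of *Cers5* smaller. Of the summed CPM per kb of *Cers1* to *Cers6*, *Cers2* made up 68.5% ± 1.32 (SD, n = 3) with Veh, 80.9% ± 0.363 with HC3 and 76.9% ± 0.537 with RSM in naïve cells. In M[IL-4] it made up 66.9% ± 1.19 with Veh, 76.9% ± 0.127 with HC3 and 75.8% ± 0.541 with RSM. The share of *Cers5* was 20.1% ± 1.08 in Veh M[0] against 11.9% ± 0.175 in HC3 M[0] and 14.2% ± 0.736 in RSM M[0], and 19.5% ± 0.284 in Veh M[IL-4] against 10.9% ± 0.390 in HC3 M[IL-4] and 11.8% ± 0.603 in RSM M[IL-4]. In each polarization the inhibitor libraries lay wholly above vehicle for *Cers2* and wholly below it for *Cers5*. *Cers6* made up 10.9% ± 0.479, 7.03% ± 0.307 and 8.73% ± 0.388 in M[0] with Veh, HC3 and RSM, and 13.3% ± 1.100, 12.1% ± 0.303 and 12.3% ± 0.370 in M[IL-4]. *Cers1*, *Cers3* and *Cers4* together contributed under 1% per kilobase in every group, while by counts *Cers4* alone made up 1.29% in Veh M[0]. These shares are descriptions without a test, and since the shares of a class sum to a whole, a larger share of one isoform leaves less for the others.

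**Figure D2:**
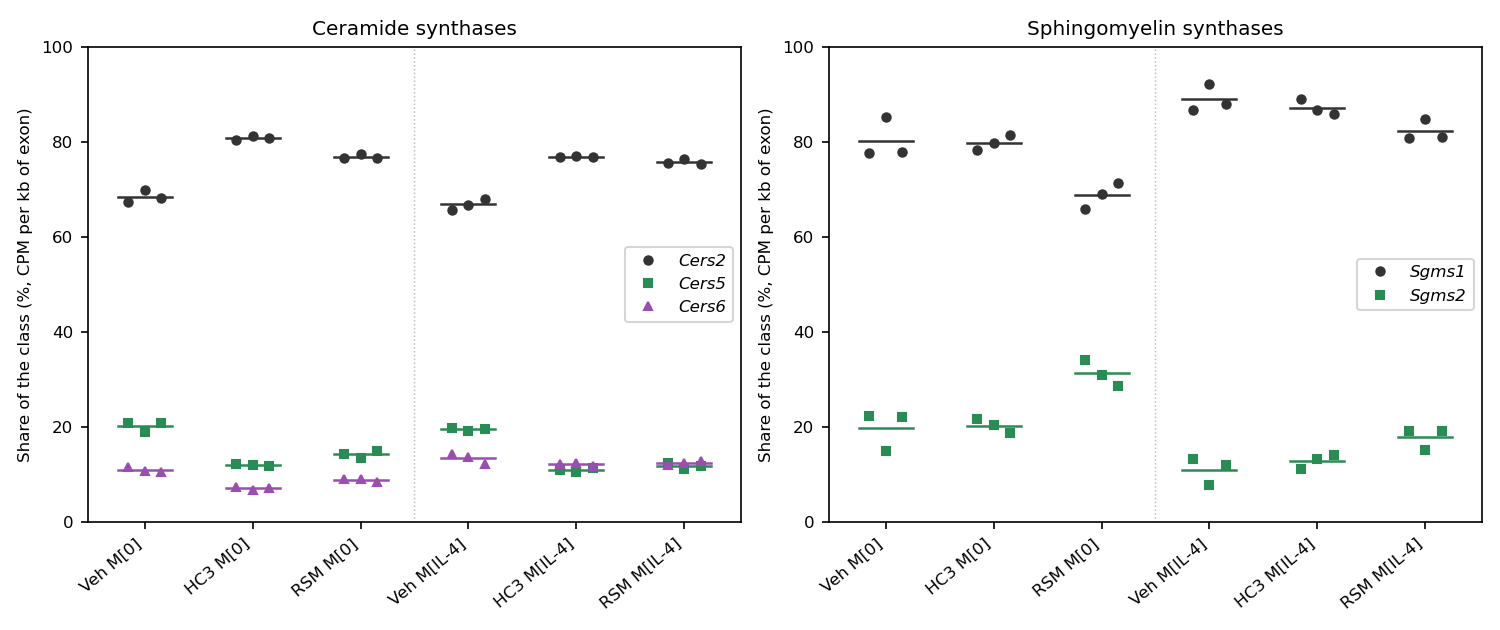
Share of each isoform in its enzyme class (y axis, percent of summed CPM per kb of exon) in the 6 groups (x axis); each point is a library and the line is the mean of 3 libraries. *Cers2* made up 68.5% in Veh M[0] and 80.9% in HC3 M[0], while *Sgms2* made up 31.2% of the sphingomyelin synthase class in RSM M[0] against 19.7% in Veh M[0].

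Both sphingomyelin synthases, the enzymes that consume phosphatidylcholine to make sphingomyelin, rose with both inhibitors. *Sgms1* (chromosome 19, 32122727 to 32389714), the Golgi enzyme, was at 76.9, 77.8 and 71.2 CPM in Veh M[0], 112, 103 and 104 CPM in HC3 M[0] and 91.1, 90.1 and 86.5 CPM in RSM M[0]. With IL-4 the levels were 101, 112 and 99.1 CPM with Veh, 134, 139 and 145 CPM with HC3 and 126, 122 and 117 CPM with RSM. In each polarization the groups were ordered Veh, RSM and HC3 from low to high, with no overlap between any of the 3. The log2 fold changes were 0.50 ± 0.061 (FDR 2.03e-06) and 0.24 ± 0.061 (FDR 0.00334) with HC3 and with RSM in naïve cells, and 0.42 ± 0.060 (FDR 1.63e-05) and 0.23 ± 0.060 (FDR 0.00570) in M[IL-4]. Without all libraries of replicate 3 the calls with RSM were lost, at 0.23 (FDR 0.0577) in M[0] and 0.21 (FDR 0.0765) in M[IL-4], and the latter also without those of replicate 1, at 0.18 (FDR 0.0713). Exons of *2700046G09Rik* on the opposite strand cover 0.0948% of its exon length.

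*Sgms2* (chromosome 3, 131318985 to 131491411), which acts mainly at the plasma membrane, was expressed at a lower level and varied more between libraries. It was at 13.05, 7.99 and 11.9 CPM in Veh M[0], 18.3, 15.5 and 14.05 CPM in HC3 M[0] and 27.8, 23.8 and 20.5 CPM in RSM M[0]. In M[IL-4] it was at 9.098, 5.52 and 7.95 CPM with Veh, 9.79, 12.5 and 14.1 CPM with HC3 and 17.7, 12.8 and 16.3 CPM with RSM. Every inhibitor library exceeded the vehicle libraries of its polarization, and replicate 2 was the lowest vehicle library in both. With RSM the log2 fold change was 1.13 ± 0.20 (FDR 1.18e-04) in naïve cells and 1.05 ± 0.20 (FDR 4.00e-04) in M[IL-4]. Without Veh M[0] replicate 2 the former was 0.95 (FDR 0.00105), and without Veh M[IL-4] replicate 2 or RSM M[IL-4] replicate 1 the latter was 0.87 (FDR 0.00307) or 0.95 (FDR 0.00287), so that the rise remained past the FDR but under a log2 fold change of 1.

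With HC3 the log2 fold change of *Sgms2* was 0.54 ± 0.20 (FDR 0.0345) in naïve cells and 0.69 ± 0.21 (FDR 0.0128) in M[IL-4], and both calls were lost when single libraries were left out. In M[0] the call was lost without Veh replicate 2, at 0.36 (FDR 0.174), without HC3 replicate 1, at 0.43 (FDR 0.136), or without HC3 replicate 2, at 0.56 (FDR 0.0577). After IL-4 it was lost without Veh replicate 2, at 0.51 (FDR 0.0720), or without HC3 replicate 3, at 0.56 (FDR 0.0682). Of 17 alternative fits, including those without whole replicates, 11 kept the call in M[0] and 13 that in M[IL-4]. Per kilobase, *Sgms2* made up 19.7% ± 4.25 of the sphingomyelin synthase class with Veh, 20.2% ± 1.52 with HC3 and 31.2% ± 2.74 with RSM in naïve cells. In M[IL-4] its share was 10.96% ± 2.87 with Veh, 12.8% ± 1.58 with HC3 and 17.8% ± 2.31 with RSM. *Sgms1* thus provided most of the sphingomyelin synthase transcript in every group, and the share of *Sgms2* was highest in RSM M[0].

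**Figure D3:**
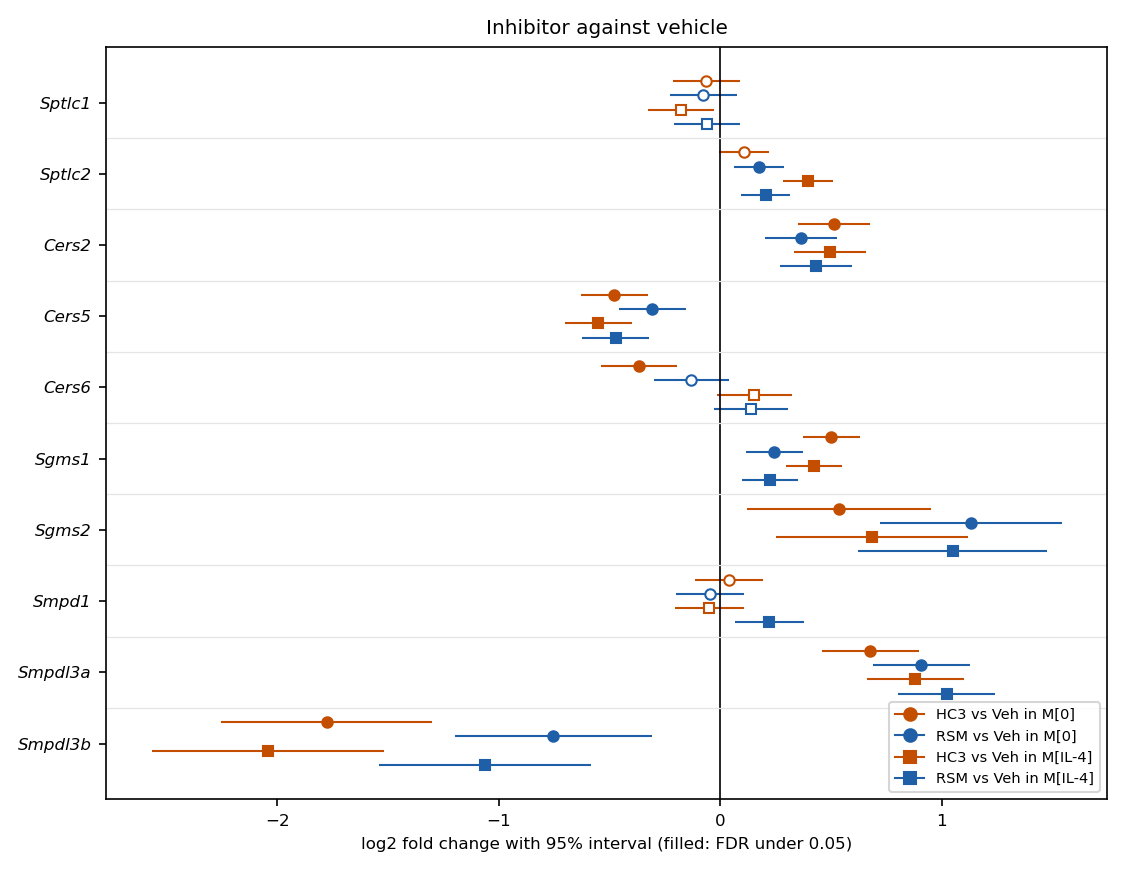
Log2 fold change of each gene with HC3 (orange) or RSM (blue) against Veh, in M[0] (circles) and M[IL-4] (squares), with 95% intervals from the edgeR fit; filled symbols have an FDR under 0.05. *Smpdl3b* reached -1.78 and -2.04 with HC3, and *Sgms2* 1.13 and 1.05 with RSM.

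*Smpd1* (chromosome 7, 105554360 to 105558389), the lysosomal enzyme that hydrolyses sphingomyelin to ceramide and phosphocholine, passed the test with RSM in M[IL-4] and in no other inhibitor comparison. It was at 41.4, 40.2 and 39.8 CPM in Veh M[0], 39.1, 40.97 and 44.9 CPM in HC3 M[0] and 38.7, 38.3 and 40.6 CPM in RSM M[0]. Among M[IL-4] libraries it was at 30.8, 35.8 and 37.6 CPM with Veh, 34.9, 33.1 and 32.7 CPM with HC3 and 40.3, 39.99 and 41.1 CPM with RSM, and the RSM libraries lay above both other groups. The log2 fold change was 0.22 ± 0.074 (FDR 0.0234) for RSM in M[IL-4], and this call was lost without Veh M[IL-4] replicate 1, the lowest of the 18 libraries, at 0.14 (FDR 0.142), or without RSM M[IL-4] replicate 3, at 0.21 (FDR 0.0693). It was lost as well without the count filter, at 0.21 (FDR 0.151), and with only the compared groups, at 0.22 (FDR 0.0841). Of 17 alternative fits, including those without whole replicates, 10 kept the call, and the highest FDR was 0.178. For HC3 the 95% intervals of the log2 fold change were -0.11 to 0.19 in M[0] and -0.21 to 0.11 in M[IL-4].

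The homologues of *Smpd1* moved in opposite directions. *Smpdl3a* (chromosome 10, 57794335 to 57811830) encodes a secreted phosphodiesterase that acts on nucleotides, and was at 416, 413 and 413 CPM in Veh M[0], 664, 688 and 634 CPM in HC3 M[0] and 734, 841 and 755 CPM in RSM M[0]. In M[IL-4] it was at 381, 254 and 304 CPM with Veh, 562, 598 and 569 CPM with HC3 and 576, 699.6 and 632 CPM with RSM. The inhibitor and vehicle libraries of a polarization did not overlap, the narrowest gap being between the highest Veh M[IL-4] library and the lowest HC3 M[IL-4] library. The log2 fold changes were 0.68 ± 0.10 (FDR 3.10e-05) and 0.91 ± 0.10 (FDR 1.01e-06) with HC3 and with RSM in naïve cells, and 0.88 ± 0.10 (FDR 1.77e-06) and 1.02 ± 0.10 (FDR 2.47e-07) in M[IL-4]. The last passed a log2 fold change of 1 with all libraries but not without Veh M[IL-4] replicate 2, at 0.89 (FDR 5.23e-07), or RSM M[IL-4] replicate 2, at 0.94 (FDR 3.45e-06), whereas that of HC3 in M[IL-4] passed it without Veh M[IL-4] replicate 1, at 1.05 (FDR 5.44e-08).

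*Smpdl3b* (chromosome 4, 132732966 to 132757252) encodes a membrane-anchored phosphodiesterase that restrains Toll-like receptor signalling in macrophages. It was at 6.86, 6.05 and 7.47 CPM in Veh M[0], 2.19, 1.23 and 2.53 CPM in HC3 M[0] and 4.27, 3.66 and 4.16 CPM in RSM M[0]. After IL-4 it was at 4.95, 3.72 and 5.096 CPM with Veh, 0.792, 1.38 and 1.15 CPM with HC3 and 2.09, 2.15 and 2.34 CPM with RSM, and in each polarization the 3 groups did not overlap. These levels rest on few reads, 103 to 139 per library in Veh M[0] and 14 to 25 in HC3 M[IL-4]. The log2 fold change with HC3 was -1.78 ± 0.23 (FDR 3.58e-06) in naïve cells and -2.04 ± 0.25 (FDR 2.54e-06) in M[IL-4], a 3.43-fold and a 4.12-fold fall. With RSM it was -0.75 ± 0.21 (FDR 0.00779) in naïve cells and -1.06 ± 0.23 (FDR 9.96e-04) in M[IL-4], where the fold went under the threshold without Veh M[IL-4] replicate 3, at -0.98 (FDR 0.00615). The call with RSM in M[0] was lost without all libraries of replicate 1, at -0.79 (FDR 0.0588), or of replicate 3, at -0.71 (FDR 0.115).

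Polarization with IL-4 moved fewer of the genes and by less than 2-fold. With vehicle, 2 of the 10 genes were higher in M[IL-4] than in M[0] (16.1% of all genes) and 3 were lower (14.9%). With HC3, 3 were higher (7.22%) and 2 lower (7.48%), and with RSM 2 were higher (8.79%) and 2 lower (6.74%). None of the 10 passed a log2 fold change of 1 or -1 as well, which 6.66%, 3.97% and 4.26% of all genes did with Veh, HC3 and RSM, while 5, 5 and 4 of the 10 passed the FDR alone.

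*Sgms1* and *Cers6* were higher in M[IL-4] under each of the 3 treatments. For *Sgms1* the log2 fold changes were 0.47 ± 0.061 (FDR 9.74e-06) with Veh, 0.39 ± 0.060 (FDR 1.49e-04) with HC3 and 0.45 ± 0.060 (FDR 2.35e-05) with RSM. For *Cers6* they were 0.30 ± 0.081 (FDR 0.00796) with Veh, 0.82 ± 0.081 (FDR 7.62e-07) with HC3 and 0.57 ± 0.081 (FDR 3.94e-05) with RSM, and the value with Veh was lost without Veh M[IL-4] replicate 2, at 0.19 (FDR 0.0601), or without all libraries of replicate 3, at 0.32 (FDR 0.0623). *Sptlc2* passed with HC3, at 0.34 ± 0.053 (FDR 1.74e-04) and not without all libraries of replicate 3, at 0.30 (FDR 0.0504), against 0.048 ± 0.054 (FDR 0.537) with Veh and 0.077 ± 0.053 (FDR 0.400) with RSM. *Sptlc1*, *Cers2* and *Cers5* did not pass under any treatment, the lowest FDR being 0.0844 for *Cers5* with RSM. That value of *Cers5* passed with library size only, at -0.25 (FDR 0.0116).

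Among the genes that were lower in M[IL-4], *Smpdl3b* passed under all 3 treatments, at -0.57 ± 0.21 (FDR 0.0490) with Veh, -0.83 ± 0.27 (FDR 0.0424) with HC3 and -0.87 ± 0.23 (FDR 0.0121) with RSM. The value with Veh lost its call when any of the 6 libraries was left out (FDR 0.0507 to 0.171). That with HC3 lost it without HC3 M[0] replicate 1, at -0.75 (FDR 0.127), HC3 M[0] replicate 3, at -0.62 (FDR 0.204), HC3 M[IL-4] replicate 1, at -0.64 (FDR 0.158), or HC3 M[IL-4] replicate 3, at -0.86 (FDR 0.0877). Both were lost without the count filter too, at -0.55 (FDR 0.0826) and -0.80 (FDR 0.0574), and that with RSM without all libraries of replicate 1 or 3, at -0.80 (FDR 0.139) or -0.91 (FDR 0.145). The value with HC3 passed a log2 fold change of -1 without HC3 M[0] replicate 2, at -1.08 (FDR 0.00593), or HC3 M[IL-4] replicate 2, at -1.02 (FDR 0.0410). *Smpdl3a* was lower with Veh, at -0.40 ± 0.10 (FDR 0.00599), a call lost without all libraries of replicate 3, at -0.38 (FDR 0.152), and had values of -0.20 ± 0.10 (FDR 0.228) with HC3 and -0.29 ± 0.10 (FDR 0.0693) with RSM. The value of *Smpdl3a* with RSM lay near the threshold. It passed with all libraries kept under 5 alternatives, at -0.29 (FDR 0.00148) without the count filter, -0.35 (FDR 0.0329) with library size only, -0.30 (FDR 0.0423) with DESeq2, -0.29 (FDR 0.0404) with only the compared groups and -0.29 (FDR 0.0385) with a replicate block over all libraries. It also passed without RSM M[IL-4] replicate 2, at -0.37 (FDR 0.0472).

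*Smpd1* was lower in M[IL-4] with Veh, at -0.22 ± 0.074 (FDR 0.0291), and with HC3, at -0.31 ± 0.074 (FDR 0.00703), with a value of 0.046 ± 0.073 (FDR 0.767) with RSM. The call with Veh was lost without any of 4 libraries, Veh M[0] replicates 1, 2 and 3 and Veh M[IL-4] replicate 1 (FDR 0.0519 to 0.157), and that with HC3 without all libraries of replicate 2, at -0.30 (FDR 0.0777), or of replicate 3, at -0.22 (FDR 0.262). With all libraries kept, the call with Veh was lost without the count filter (FDR 0.178) and with only the compared groups (FDR 0.103). *Sgms2* was lower with RSM, at -0.63 ± 0.19 (FDR 0.0306), a call that was lost without RSM M[0] replicate 1 or 2 or RSM M[IL-4] replicate 2 or 3 (FDR 0.0666 to 0.138). Its value with Veh was -0.54 ± 0.21 (FDR 0.0546), which passed without Veh M[0] replicate 2, at -0.73 (FDR 0.0135), or Veh M[IL-4] replicate 1, at -0.70 (FDR 0.0307). With all libraries kept, it also passed without the count filter, at -0.53 (FDR 0.00312), and with library size only, at -0.60 (FDR 0.0459). A replicate block over all libraries gave -0.54 (FDR 0.0190). With HC3 it was -0.39 ± 0.20 (FDR 0.206).

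**Figure D4:**
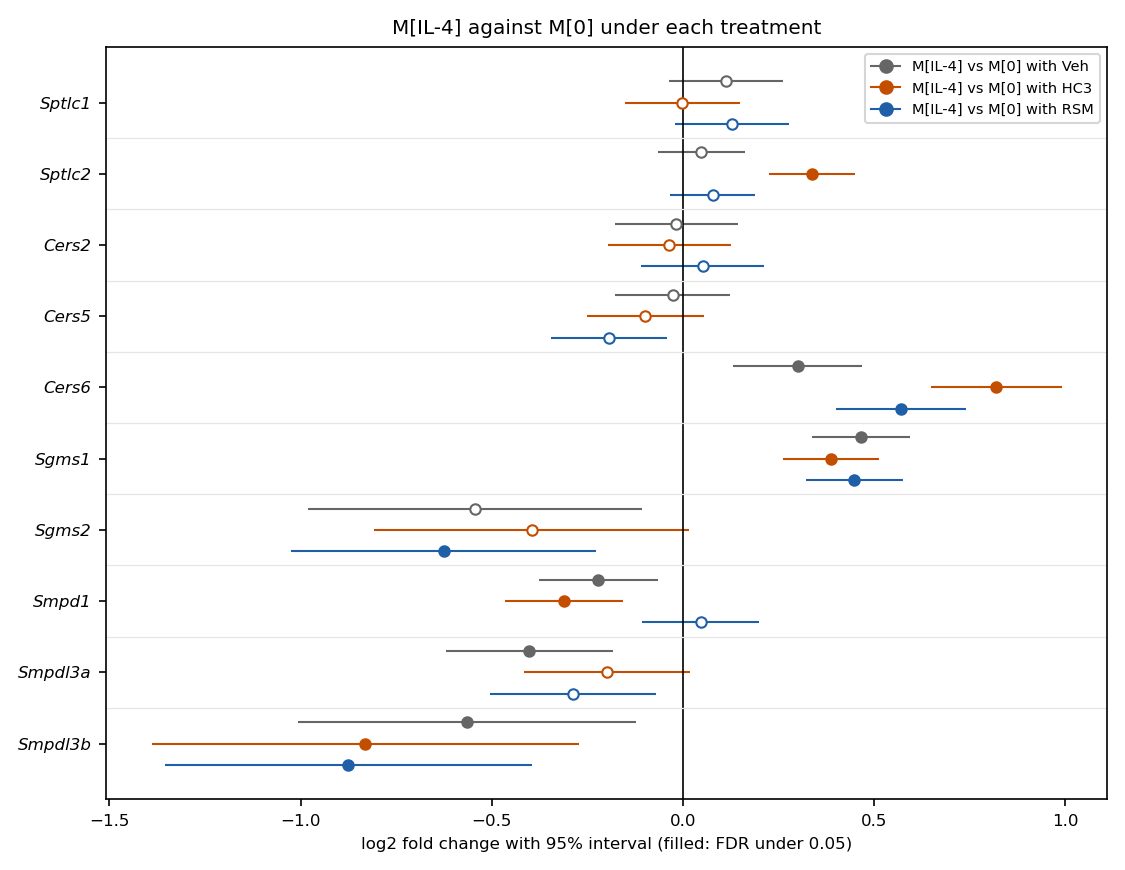
Log2 fold change of each gene in M[IL-4] against M[0] under Veh (grey), HC3 (orange) and RSM (blue), with 95% intervals from the edgeR fit; filled symbols have an FDR under 0.05. *Sgms1* and *Cers6* lie to the right of 0 and *Smpdl3b* to the left of it under all 3 treatments, and *Cers6* with HC3 reached 0.82.

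The interaction asks whether the effect of an inhibitor differed between M[IL-4] and M[0], and for HC3 it passed for 2 of the 10 genes (6.48% of all genes). *Cers6* had an interaction of 0.52 ± 0.11 (FDR 0.00910) on the log2 scale, where HC3 lowered it in M[0] and not in M[IL-4], and this call held without any single library but was lost without all libraries of replicate 1 (FDR 0.0725) or of replicate 3 (FDR 0.182). For *Sptlc2* the interaction was 0.29 ± 0.076 (FDR 0.0276), from an HC3 effect of 0.11 in naïve and 0.40 in M[IL-4] cells. The call for *Sptlc2* was lost without any of 6 libraries, Veh M[0] replicate 1, HC3 M[0] replicate 3, Veh M[IL-4] replicate 1 or 3, or HC3 M[IL-4] replicate 2 or 3, each of which gave an FDR of 0.0601 to 0.0707. It was also lost without the count filter, at 0.30 (FDR 0.141), and with only the compared groups, at 0.29 (FDR 0.0730). For RSM 0 of the 10 genes passed (9.19% of all genes), and *Cers6* had a value of 0.27 ± 0.11 (FDR 0.166) that passed without Veh M[IL-4] replicate 2, at 0.38 (FDR 0.0177). With the fold threshold added, 0 of the 10 genes were called for either interaction (1.24% of all genes for HC3 and 2.14% for RSM).

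HC3 and RSM act at successive steps of choline use and were given at different doses, so their values are set side by side as measured. In M[0], 3 of the 10 genes differed between them (13.6% of all genes): *Sgms1* was higher with HC3, at 0.26 ± 0.061 (FDR 0.00710), and *Sgms2* and *Smpdl3b* were lower with it, at -0.59 ± 0.19 (FDR 0.0446) and -1.02 ± 0.23 (FDR 0.00521). With the block within each polarization 6 genes differed, where 26.6% of all genes did, adding *Cers2* at 0.15 (FDR 0.0160), *Cers5* at -0.17 (FDR 0.0413) and *Cers6* at -0.23 (FDR 0.00101). *Cers6* also passed with library size only, at -0.25 (FDR 0.0218), and without the count filter, at -0.25 (FDR 0.0260). It passed as well without mitochondrial genes, at -0.24 (FDR 0.0484), and with only the compared groups, at -0.25 (FDR 0.0141). *Smpdl3b* alone also passed the fold threshold (3.04% of all genes), and went under it without HC3 M[0] replicate 2, at -0.77 (FDR 0.0281), or RSM M[0] replicate 1, at -0.99 (FDR 0.0185). The call for *Sgms2* was lost without HC3 M[0] replicate 2 or 3 or RSM M[0] replicate 1 or 2 (FDR 0.0974 to 0.167), or with library size only, at -0.61 (FDR 0.0519). All 3 calls were lost without the libraries of replicate 1 (FDR 0.0633 to 0.105) or of replicate 3 (FDR 0.0626 to 0.267).

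In M[IL-4], 4 of the 10 genes differed between HC3 and RSM (13% of all genes) and 0 passed the fold threshold (2.8%). *Sptlc2* and *Sgms1* were higher with HC3, at 0.19 ± 0.053 (FDR 0.0205) and 0.20 ± 0.060 (FDR 0.0373), and *Smpd1* and *Smpdl3b* were lower with it, at -0.27 ± 0.074 (FDR 0.0195) and -0.98 ± 0.26 (FDR 0.0175). Each of these 4 calls was lost without at least 1 library, and all 4 without the libraries of replicate 3 (FDR 0.225 to 0.392). Leaving out HC3 M[IL-4] replicate 2 or 3 or RSM M[IL-4] replicate 3 ended the calls of *Sptlc2*, *Sgms1* and *Smpd1* (FDR 0.0566 to 0.154), leaving out RSM M[IL-4] replicate 2 ended that of *Sgms1*, at 0.20 (FDR 0.0654), and leaving out HC3 M[IL-4] replicate 1 or RSM M[IL-4] replicate 3 ended that of *Smpdl3b*, at -0.79 (FDR 0.0940) or -0.93 (FDR 0.0611). *Smpdl3b* passed the fold threshold without RSM M[IL-4] replicate 1, at -1.01 (FDR 0.0322), or HC3 M[IL-4] replicate 2 or 3, at -1.17 (FDR 0.0160) or -1.005 (FDR 0.0486). For *Smpdl3a*, which rose with each inhibitor, the 95% interval of HC3 against RSM was -0.45 to -0.014 in M[0] and -0.36 to 0.075 in M[IL-4], and neither difference passed. That in M[0] did pass without the count filter, at -0.24 (FDR 0.0144), and with only the compared groups, at -0.24 (FDR 0.0341).

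Beyond the 10 genes, 40 of 49 other genes of sphingolipid metabolism passed the count filter, in a list likewise chosen with earlier results known. With HC3, 9 rose (22.6% of all genes), 17 fell (21.5% of all genes) and 14 did not pass in M[0], and 9 rose (18.9%), 15 fell (19.9%) and 16 did not pass in M[IL-4]. With RSM, 9 rose (20.5%), 19 fell (20.7%) and 12 did not pass in naïve cells, and 11 rose (20.1%), 17 fell (18.5%) and 12 did not pass in M[IL-4]. Their median log2 fold change was -0.19 and -0.20 in naïve cells and -0.19 and -0.20 in M[IL-4] for HC3 and RSM, where the medians over all genes given above lay near 0. Between M[IL-4] and M[0], 5 were higher (16.1%) and 8 lower (14.9%) with Veh, 3 higher (7.22%) and 3 lower (7.48%) with HC3, and 6 higher (8.79%) and 3 lower (6.74%) with RSM. *Samd8*, a ceramide phosphoethanolamine synthase related to *Sgms1* and *Sgms2*, was the only listed gene past the fold threshold upward in the inhibitor comparisons, at 1.22 ± 0.11 (FDR 3.58e-08) and 1.24 ± 0.11 (FDR 3.20e-08) in naïve cells and 1.13 ± 0.11 (FDR 1.17e-07) and 1.03 ± 0.11 (FDR 3.49e-07) in M[IL-4]. Its mean was 60.98 ± 4.603 CPM in Veh M[0], 142 ± 11.8 CPM in HC3 M[0] and 144 ± 7.44 CPM in RSM M[0].

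Among listed genes past both thresholds whose higher group averaged 50 or more counts, those with the largest falls in each comparison were *Smpd3*, *Cers4*, *B4galt6*, *Degs2* and *St3gal5*. *Smpd3*, neutral sphingomyelinase 2, had log2 fold changes of -2.35 in M[0] (FDR 2.35e-05) and -2.52 in M[IL-4] (FDR 8.51e-06) with RSM. With HC3 they were -1.21 (FDR 0.00474) and -1.24 (FDR 0.00364), calls that were lost without the libraries of replicate 3 (FDR 0.0742 and 0.0614). *Cers4* fell with HC3, at -1.02 in naïve and -1.07 in M[IL-4] cells, and with RSM, at -1.199 in naïve and, outside the naming rule, -1.22 in M[IL-4] cells, from a low level of 7.62 ± 0.165 CPM in Veh M[0]. *B4galt6*, a lactosylceramide synthase, fell from 420.2 ± 20.2 CPM in Veh M[0] to 177 ± 14.3 CPM with HC3 and 188 ± 16.7 CPM with RSM, at -1.25 ± 0.071 (FDR 7.66e-11) and -1.16 ± 0.071 (FDR 2.36e-10). *St3gal5*, which makes the simplest ganglioside, fell with RSM in M[IL-4] from 94.4 ± 20.7 to 36.8 ± 2.45 CPM, at -1.36 ± 0.11 (FDR 1.62e-08). *Degs2*, a dihydroceramide desaturase at 2.996 ± 0.231 CPM in Veh M[IL-4], fell in M[IL-4] with RSM, at -1.77 ± 0.41 (FDR 0.00187), and with HC3, at -1.31 ± 0.39 (FDR 0.0126), the latter call being lost without HC3 M[IL-4] replicate 1 (FDR 0.0527) or 3 (FDR 0.0554) or all libraries of either number (FDR 0.112 and 0.0823). Its values in M[0], where the count was under that rule's minimum, were -2.09 ± 0.48 (FDR 0.00153) with HC3 and -2.63 ± 0.51 (FDR 3.62e-04) with RSM. Opposite-strand exons cover 8.97% of the exon length of *Cers4*, 10.8% of *Degs2* and 4.72% of *Smpd3*.

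*Sptssa* and *Col4a3bp*, which act directly beside the 10 genes, are given although the naming rule left them out, a choice made with their values known. *Sptssa*, a small subunit that activates serine palmitoyltransferase, fell in all 4 inhibitor comparisons, at -0.60 ± 0.056 (FDR 5.78e-08) and -0.39 ± 0.056 (FDR 1.53e-05) in naïve cells and -0.37 ± 0.056 (FDR 2.98e-05) and -0.32 ± 0.056 (FDR 1.47e-04) in M[IL-4] for HC3 and RSM. *Col4a3bp*, the transfer protein CERT that delivers ceramide to *Sgms1* at the Golgi, rose in all 4, at 0.35 ± 0.085 (FDR 0.00230) and 0.57 ± 0.085 (FDR 2.37e-05) in naïve cells and 0.27 ± 0.085 (FDR 0.0184) and 0.44 ± 0.085 (FDR 3.53e-04) in M[IL-4]. The other listed gene of ceramide transfer did not pass in any of the 4. Of the 3 listed ORMDL regulators, 0 passed with HC3 and 1 fell with RSM in each polarization. Of 3 listed genes of the dihydroceramide steps, 1 fell with HC3 and 2 with RSM in each polarization. The shares of all genes that fell are given above.

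Over the 6 group means, *Smpdl3b* had the widest range of the 10 genes, 2.53 on the log2 CPM scale, and *Sptlc1* the narrowest, 0.19. Among 3655 genes held to a minimum range below that of *Smpdl3b*, those whose group means followed it most closely included *Rgs11* (Pearson's r = 0.989), *Abca9* (0.984), *Stk26* (0.984) and *2510009E07Rik* (0.984). Their ranges were 2.03, 3.98, 1.57 and 1.44 in that order. These correlations are descriptions over 6 points that share the vehicle, inhibitor and IL-4 groups. *Abca9* varied most of these 4 genes, from 69.5 CPM in Veh M[0] to 4.41 CPM in HC3 M[IL-4].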

How the data were processed

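RNA was isolated by the authors from BMDM of 3 mice, poly-A selected and sequenced as read pairs. Per the labels and the methods of the study, adapters were trimmed with fastp, pairs were aligned to GRCm38 with STAR in local mode, pairs with a high mapping quality were kept, duplicates were marked with Picard and kept, and pairs on exons were counted per Ensembl gene with Subread featureCounts. The deposited values are raw counts. The annotation release, tool versions and strand setting are not given in the sources used here, and the filter on mapping quality can lower the counts of genes with near-identical copies.

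Samples were grouped by their labels, and 55144 of 55385 identifiers matched a gene symbol in GENCODE M21 (GRCm38). A gene was kept when 2 or more libraries held 10 or more of its counts, which left 14979. A single edgeR 4.0.16 quasi-likelihood fit (R 4.3.3, TMM) of all 18 libraries with a coefficient for each of 6 groups gave 11 comparisons, with Benjamini-Hochberg adjustment over all tested genes. Intervals are 95% intervals of the fit. Levels per kilobase used the exon length of the annotation, and stretches shared between members and other genes were searched with blastn 2.17.0. Alternatives were DESeq2 1.42.0, library size only, no count filter, filterByExpr, omission of mitochondrial genes, only the compared groups, replicate blocks and omission of each replicate or library. The script was checked on simulated counts. Replicates of a group differed by more than counting error, so no library was counted as a repeat of another. The members and gene lists were chosen with earlier results of these data known. Besides the members, listed genes were named where both thresholds were passed, up to 3 rises and 3 falls per inhibitor comparison, where the higher group averaged 50 or more counts. Genes like *Smpdl3b* were the 5 with the highest correlation over the 6 group means, of which 1 is not reported here.

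Same-numbered libraries of a polarization deviated together from their group means (correlation over 0.1 in 18 of 18 pairs, 0.11 to 0.372) so by that check the numbers paired them, and a fit with the number as a block within each polarization is given where it changed a call. The calls come from the fit without a block. The labels give 3 mice but do not say that the number marks the mouse. Across polarizations 12 of 27 same-numbered pairs had a correlation over 0.1, against 10 of 54 pairs with different numbers, so pairing there was weaker.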

Additional observations from a re-analysis of the deposited data

Results flagged for a closer look

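The effect of HC3 differed between M[IL-4] and M[0] for 2 of the 10 genes (6.48% of all genes), by the interaction term of the edgeR fit. For *Cers6* the difference was 0.52 ± 0.11 (FDR 0.00910) on the log2 scale, where the effect of HC3 was -0.37 in M[0] and 0.15 in M[IL-4]. For *Sptlc2* it was 0.29 ± 0.076 (FDR 0.0276), with effects of 0.11 and 0.40. The call for *Sptlc2* was lost without any of 6 single libraries, without the count filter (FDR 0.141) and with only the compared groups (FDR 0.0730), and that for *Cers6* without the libraries of replicate 1 or 3. No cause was tested for either.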

How the results depend on the processing

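Of 110 member values (10 genes in 11 comparisons), 52 passed an FDR of 0.05. Each value was computed under the 16 to 22 of 29 alternatives that apply to its comparison. All 52 kept their direction under those, and 25 also kept their side of the threshold. Of the 52 calls, 27 were lost when all libraries of some replicate number were left out, 15 when a single library was, and 12 under an alternative that kept all libraries, 10 of them without the count filter. Values that had not passed also gained calls, 31 times with all libraries kept and 10 times with libraries left out. With library size only these included *Sptlc2* with HC3 in M[0], at 0.15 (FDR 0.0190). They also included *Cers6* in M[IL-4], at 0.21 (FDR 0.0234) with HC3 and 0.19 (FDR 0.0326) with RSM. *Sptlc1* with HC3 in M[IL-4] passed without mitochondrial genes, at -0.18 (FDR 0.0463). Under alternatives that kept all libraries, signs changed for 8 values, none of which had passed. With library size only these were *Smpd1* at 0.010 with RSM in M[0], 0.0023 with HC3 in M[IL-4] and -0.015 for IL-4 with RSM, *Sptlc2* at -0.0078 for IL-4 with Veh, *Cers2* at -0.010 for IL-4 with RSM, and *Sptlc1* at -0.00011 for HC3 against RSM in M[0]. The others were *Sptlc1* for IL-4 with HC3, at 0.023 without the count filter, 0.014 without mitochondrial genes, 0.011 with only the compared groups and 0.0044 with DESeq2, and *Sptlc1* for the RSM interaction, at -0.0026 without the count filter and -0.0013 with DESeq2. The number of genes past the FDR went to 1 for the HC3 interaction, 5 for HC3 against RSM in M[0] and 1 for HC3 against RSM in M[IL-4] without the count filter, and likewise to 1, 5 and 1 with only the compared groups. The cause was not tested.

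When a library or a replicate was left out, the number of genes past the FDR ranged from 3 to 7 for RSM in M[0], 5 to 9 for RSM in M[IL-4], 1 to 4 for IL-4 with Veh, 2 to 5 for IL-4 with HC3 and 2 to 4 for IL-4 with RSM. It ranged from 0 to 2 for the HC3 interaction, 0 to 1 for the RSM interaction, 0 to 3 for HC3 against RSM in M[0] and 0 to 4 for the same in M[IL-4]. With the fold threshold added it ranged from 0 to 1 for RSM in M[0], 1 to 2 with HC3 and 1 to 3 with RSM in M[IL-4], and 0 to 1 in each of IL-4 with HC3 and the comparisons of HC3 against RSM. These fits hold fewer samples. Signs changed only for values that had not passed, with these left-out ranges of the log2 fold change. Between M[IL-4] and M[0] with Veh the ranges were -0.10 to 0.074 for *Cers2*, -0.13 to 0.057 for *Cers5* and -0.010 to 0.10 for *Sptlc2*. Between M[IL-4] and M[0] with HC3 the ranges were -0.046 to 0.039 for *Sptlc1* and -0.090 to 0.021 for *Cers2*. For the HC3 by IL-4 interaction the ranges were -0.75 to 0.064 for *Smpdl3b*, -0.11 to 0.067 for *Cers2*, -0.14 to 0.049 for *Cers5*, -0.060 to 0.42 for *Sgms2* and -0.25 to 0.076 for *Smpd1*. For the RSM by IL-4 interaction the ranges were -0.035 to 0.072 for *Sptlc1*, -0.041 to 0.085 for *Sptlc2*, -0.023 to 0.15 for *Cers2*, -0.066 to 0.035 for *Sgms1*, -0.26 to 0.10 for *Sgms2* and -0.031 to 0.30 for *Smpdl3a*. For HC3 against RSM in M[0] the range was -0.021 to 0.057 for *Sptlc1*. For HC3 against RSM in M[IL-4] the range was -0.056 to 0.064 for *Cers6*. For HC3 in M[0] the range was -0.038 to 0.10 for *Smpd1*. With HC3 after IL-4 the range was -0.15 to 0.038 for *Smpd1*.

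With the replicate number as a block within each polarization, 6 genes differed between HC3 and RSM in M[0] in place of 3. Beyond the calls given with the results, this block changed no call of a member. Pairing was weaker between polarizations, where 8 of 18 libraries correlated best with their own number, against 17 of 18 within a polarization. With a replicate block across all 18 libraries, the values that gained a call were *Sptlc1* at -0.18 (FDR 0.0221) for HC3 in M[IL-4], *Sgms2* at -0.54 (FDR 0.0190) for IL-4 with Veh, *Smpdl3a* at -0.29 (FDR 0.0385) for IL-4 with RSM and *Cers6* at -0.23 (FDR 0.0171) for HC3 against RSM in M[0]. Over all genes, 970 passed for the HC3 interaction and 1577 did with that block. For HC3 against RSM, 2039 passed in M[0] and 1947 in M[IL-4], against 3985 and 3612 with the block within each polarization. Counts of 14 to 48 reads per HC3 library limit the precision for *Smpdl3b*. Without division by exon length, *Cers6* exceeded *Cers5* in the class shares of each group, at 22.8% against 16.7% in Veh M[0], whereas per kilobase *Cers5* was the higher there, at 20.1% against 10.9%.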
